A study of Mus musculus with 6 samples.

Results

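The globin genes compared here are the 7 alpha-type and beta-type chain genes of haemoglobin named by the symbols Hbb-y, Hbb-bh1, Hba-x, Hba-a1, Hba-a2, Hbb-b1 and Hbb-b2. They were picked by symbol and not by their values, and all 7 have a row among the 23366 genes of the count files. Polyadenylated RNA came from whole mouse embryos at E10.5 on a mixed C57BL/6, CD1 and 129 background, with 3 control and 3 knockout embryos. Control embryos had the genotype Trp53-/-; H3f3a fl/+; H3f3b fl/+ and knockout embryos Trp53-/-; H3f3a fl/-; H3f3b fl/-. H3f3a and H3f3b encode histone H3.3. Every embryo of both groups also carried Sox2-Cre, a recombinase transgene driven in the epiblast, so the controls too held a floxed allele of each gene beside the recombinase, and every embryo lacked the tumour suppressor p53. The labels do not give litters, so p-values measure the spread between these samples.

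Haemoglobin pairs alpha-type with beta-type chains, and the genes of each type lie in a cluster where they are used in turn during development. The first red cells of the mouse arise in the yolk sac, circulate as nucleated primitive erythroblasts and use the embryonic chains, zeta globin from Hba-x and the beta-type chains from Hbb-bh1 and Hbb-y, together with adult alpha globin. As these cells mature, use shifts from Hbb-bh1 to Hbb-y and from zeta to adult alpha globin. Definitive red cells, which follow in the fetal liver, use the adult alpha genes Hba-a1 and Hba-a2 and the adult beta genes.

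Depth was 24952853 to 30461689 counts in genes per library. As a check of the labels, H3f3a was at 349 ± 15.4 CPM (counts per 1000000, with library sizes scaled by TMM) in controls and 67.7 ± 2.91 CPM in knockouts (SD, n = 3). H3f3b was lower as well (log2 fold change -0.60, edgeR adjusted p = 0.0257), but less so. It was at 691 ± 31.5 CPM in controls and still at 455 ± 56.8 CPM in knockouts (SD, n = 3). Why this RNA remained was not tested. Knockout 2 stood apart from the other knockouts in the share of alignments outside genes, with 10.6% against 18.3% in knockout 1 and 18.0% in knockout 3, where controls had 9.79% to 13.1%. That red cells were sampled in every library was checked on 14 genes used mainly by red cells and chosen after the values were seen, such as Alas2 and Slc4a1, which together gave 12392 to 22836 counts per library.

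The 7 genes differ in how well reads can tell them from their neighbours. Whether this sets the counts of the adult rows given below was not tested. The first 120 coding bases of each pair are shown, read from GENCODE M21 transcripts (GRCm38), with capitals at the bases where a gene differs from its partner. Hbb-b1 and Hbb-b2 have no entry of that name there, and the adult beta genes of the C57BL/6 reference are Hbb-bs and Hbb-bt.

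Hba-a1 and Hba-a2: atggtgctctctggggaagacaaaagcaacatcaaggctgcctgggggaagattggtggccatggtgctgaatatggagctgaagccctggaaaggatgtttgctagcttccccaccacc
Hbb-bs and Hbb-bt: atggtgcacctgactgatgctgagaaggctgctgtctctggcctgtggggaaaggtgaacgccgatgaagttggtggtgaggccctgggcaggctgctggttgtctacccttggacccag
Hbb-y: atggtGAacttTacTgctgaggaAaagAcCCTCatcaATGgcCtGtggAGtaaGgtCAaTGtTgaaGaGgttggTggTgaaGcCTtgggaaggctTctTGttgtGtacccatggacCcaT
Hbb-bh1: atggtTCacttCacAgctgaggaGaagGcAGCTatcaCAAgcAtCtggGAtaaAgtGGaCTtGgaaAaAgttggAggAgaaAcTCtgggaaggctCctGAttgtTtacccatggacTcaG

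The adult pairs carry no capital in this stretch, while the embryonic beta-type pair differs at 36 of the 120 bases. Over the whole coding sequence, Hba-a1 and Hba-a2 differ at 1 of 429 bases, with an identical run of 380 bases. Hbb-bs and Hbb-bt differ at 1 of 444 bases, with an identical run of 416 bases. Hbb-y and Hbb-bh1 differ at 105 of 444 bases, and their longest identical run is 26 bases. Among all windows of 100 bases in the reference transcripts, none of Hbb-y, Hbb-bh1 or Hba-x recurs in a transcript of another gene, while 56.5% of those of Hba-a1, 74.5% of Hba-a2, 62.6% of Hbb-bs and 54.8% of Hbb-bt recur in the partner gene. With windows of 50 bases the shares were 67.5%, 86.9%, 65.8% and 58.3%, and again 0 for the embryonic genes.

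The rows of the adult genes were at or near 0 in all 6 embryos. Hba-a1 and Hba-a2 had 0 counts in every library. Hbb-b1 had 0, 1 and 1 counts in controls 1, 2 and 3 and 0 in each knockout, and Hbb-b2 had 1 count in knockout 1 and 0 elsewhere. Of the 7 genes 3 passed the filter on low counts, Hbb-y, Hbb-bh1 and Hba-x. A count of 0 allows up to 3 counts, 0.0985 to 0.12 CPM in these libraries, but this limits reads assigned to a single gene and not the RNA. Alignments that were not unique were left out of every gene, and they made up 21.4% to 22.6% of alignments in controls and 18.2% to 20.9% in knockouts. Alignments that fell on more than one gene model were also left out, at 0.531% to 0.724% of alignments. How many of either belong to adult globin genes was not tested, and the ratios of embryonic to adult chains could not be computed from the listed symbols.

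A further row that may stand for an adult beta gene, Beta-s, held 494 to 1484 counts per library. RefSeq (GRCm38.p6) lists Beta-s as a synonym of Hbb-bs, and the row was singled out after its values were seen. It held 979, 494 and 854 counts in controls 1, 2 and 3 and 1484, 591 and 971 in knockouts 1, 2 and 3. The groups overlapped, with knockout 1 highest and control 2 lowest. Scaled, this was 26.9 ± 8.87 CPM in controls and 37.4 ± 18.0 CPM in knockouts (SD, n = 3). The log2 fold change of Beta-s was 0.48 ± 0.40 (SE), with a 95% interval of -0.47 to 1.43 and an edgeR adjusted p of 0.537. Without knockout 1 the log2 fold change was 0.05, without control 2 it was 0.23, and without knockout 2 it was 0.75. Which reads of the adult beta genes this row holds was not tested.

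Hbb-y, which encodes the epsilon-y chain, had the highest level per kilobase of the 3 embryonic genes in each embryo. Its counts were 107263, 132352 and 132964 in controls 1, 2 and 3 and 113899, 61351 and 102603 in knockouts 1, 2 and 3. In CPM these were 3679, 4502 and 4699 against 4389, 2266 and 3521. The groups overlapped, because knockout 1 lay within the control range, while knockout 2 and knockout 3 were below every control. The means were 4293 ± 541 CPM in controls and 3392 ± 1067 CPM in knockouts (SD, n = 3), which the fit gave as a log2 fold change of -0.34 ± 0.22 (SE; 95% interval -0.83 to 0.15; edgeR adjusted p = 0.407).

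Hbb-bh1, whose beta H1 chain is used earliest in primitive red cells, had 58381, 79440 and 74914 counts in controls 1, 2 and 3 and 54422, 43417 and 70048 in knockouts 1, 2 and 3. These counts scaled to 2002, 2702 and 2647 CPM against 2097, 1604 and 2404 CPM. Knockout 2 was the only knockout outside the control range. From means of 2451 ± 389 and 2035 ± 404 CPM (SD, n = 3), the log2 fold change was -0.27 ± 0.17 (SE; 95% interval -0.64 to 0.11), with an edgeR adjusted p of 0.397.

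Hba-x, the gene of zeta globin, had 51075, 56016 and 58653 counts in controls 1, 2 and 3 and 57637, 40255 and 56024 in knockouts 1, 2 and 3. On the CPM scale the controls were at 1752, 1905 and 2073 and the knockouts at 2221, 1487 and 1923. Knockout 1 was above and knockout 2 below all controls. The means of 1910 ± 161 and 1877 ± 369 CPM (SD, n = 3) gave a log2 fold change of -0.03 ± 0.14 (SE; 95% interval -0.35 to 0.30; edgeR adjusted p = 0.943). Its sign turned without control 3 or knockout 2 and with scaling to library totals, so no direction can be given for this gene.

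**Figure D1:**
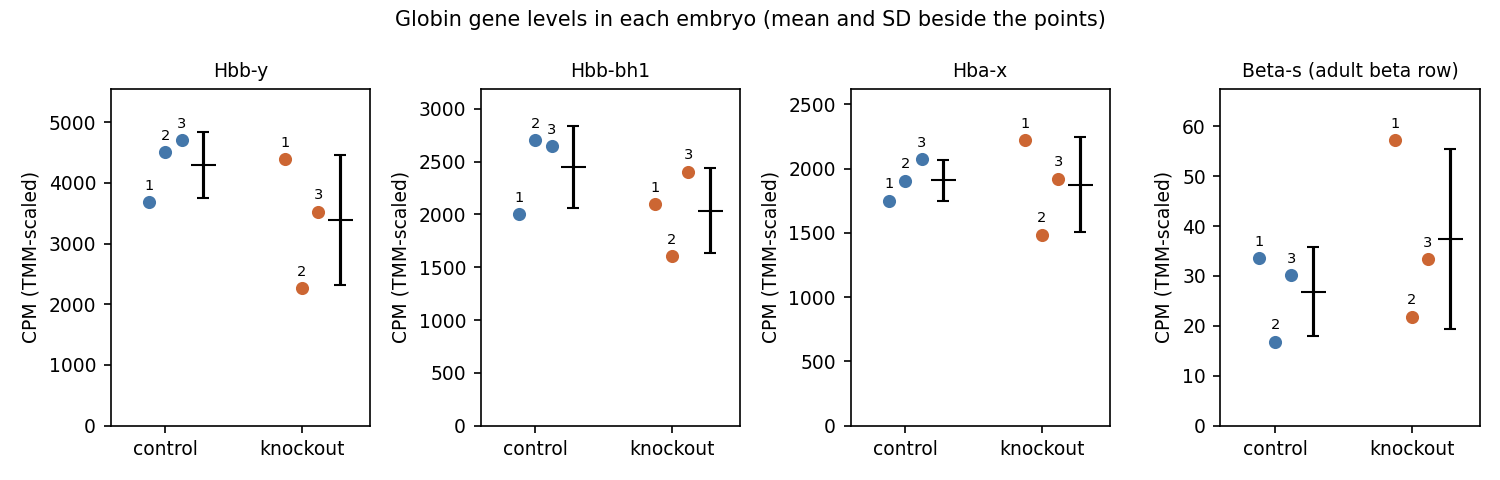
CPM (vertical axis, from 0) of Hbb-y, Hbb-bh1, Hba-x and the adult beta row Beta-s in 3 control and 3 knockout embryos, numbered by replicate, with the mean and SD beside the points. The groups overlap in each panel, and knockout 2 has the lowest level of each embryonic gene.

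Of the 3 tested globin genes, 0 passed an adjusted p under 0.05 in edgeR, in DESeq2 or in limma-voom, and 0 had an unadjusted edgeR p under 0.05. The same thresholds took in 1.51% of the 15075 genes tested by edgeR (0.551% higher and 0.955% lower), 5.17% by DESeq2 and 1.15% by limma-voom, and 19.2% of genes for the unadjusted edgeR p. At an adjusted edgeR p under 0.1, which 3.5% of genes met, the count stayed at 0. All 3 fitted log2 fold changes were below 0, as were those of 50.3% of genes, with the sign of Hba-x not kept. None of the 3 had groups that did not overlap, as 24.1% of tested genes had. In whole embryos fewer red cells and less globin RNA per cell cannot be told apart. Without knockout 2 the log2 fold change of Hbb-y was -0.12 and that of Hbb-bh1 also -0.12. Without knockout 1 that of Hbb-y was -0.56, and without knockout 3 that of Hbb-bh1 was -0.40, none of them called. With the share of alignments outside genes as a covariate, Hbb-y (-0.85 ± 0.12 SE, edgeR adjusted p = 0.00366) and Hbb-bh1 (-0.58 ± 0.13, edgeR adjusted p = 0.0303) were called as lower, where that fit called 4.96% of genes. Of the knockouts only knockout 2 lies within the control range of the covariate, and how far the fit rests on that library was not tested.

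Levels of different genes were compared per kilobase of transcript. In controls Hbb-y was at 6782 ± 855 CPM per kilobase, Hbb-bh1 at 3998 ± 635 and Hba-x at 2384 ± 200 (SD, n = 3), and the levels of neighbours in this order did not overlap. The knockouts had 5358 ± 1686, 3319 ± 659 and 2343 ± 461 CPM per kilobase (SD, n = 3), in the same order in each of the 3 embryos but with overlap between neighbours across embryos. Ranked by counts per kilobase of exons among 14178 tested genes with a length in GENCODE M21, Hbb-y was 1st or 2nd, Hbb-bh1 2nd or 3rd and Hba-x 4th to 6th in every library. The 7 rows together took 0.711%, 0.88% and 0.96% of gene counts in controls 1, 2 and 3 and 0.906%, 0.522% and 0.82% in knockouts 1, 2 and 3. The mean log2 difference of this share was -0.21 ± 0.28 (SE), with an exact two-sided permutation p of 0.6 (adjusted 0.7 over 4 planned ratios), and it was 0.03 without knockout 2.

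The balance between chains was then compared within each library, where gene length and depth cancel. The ratio of Hbb-y to Hbb-bh1, which rises as primitive red cells mature, was 1.84, 1.67 and 1.77 in controls 1, 2 and 3 and 2.09, 1.41 and 1.46 in knockouts 1, 2 and 3. Knockout 1 was above all controls and the other knockouts were below them, so the knockouts spread further (SD 0.378) than the controls (SD 0.0867). The mean log2 difference was -0.11 ± 0.19 (SE; exact permutation p = 0.7, adjusted 0.7), and it was -0.0058 without knockout 2 and -0.29 without knockout 1.

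Alpha-type over beta-type counts were higher in each knockout embryo than in any control. The ratio was 0.308, 0.264 and 0.282 in controls 1, 2 and 3 and 0.342, 0.384 and 0.324 in knockouts 1, 2 and 3. On average it was 0.285 ± 0.0221 in controls and 0.35 ± 0.0307 in knockouts (SD, n = 3), 1.23-fold higher, a log2 difference of 0.30 ± 0.10 (SE). The exact two-sided permutation p was 0.1, the smallest that 3 against 3 embryos can give, and 0.2 when adjusted over 4 ratios, so the test cannot pass 0.05 at this size. Since the adult rows held at most 1 count, this is in effect the ratio of Hba-x to Hbb-y plus Hbb-bh1. It was 0.23 without knockout 2, at the low end of 0.23 to 0.36 over the libraries left out in turn.

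Split by partner, a choice made after the values were seen, Hba-x over Hbb-y was 0.476, 0.423 and 0.441 in controls against 0.506, 0.656 and 0.546 in knockouts, the groups again apart. Hba-x over Hbb-bh1 was 0.875, 0.705 and 0.783 against 1.06, 0.927 and 0.80, where knockout 3 fell within the control range. The log2 differences were 0.34 ± 0.12 (SE; exact permutation p = 0.1) and 0.23 ± 0.15 (exact permutation p = 0.2), both 0.35 when adjusted over 7 added ratios. The second was 0.13 without knockout 1 and 0.16 without control 2. Over Beta-s, the summed embryonic beta-type counts stood at 169, 429 and 243 in controls against 113, 177 and 178 in knockouts. Control 1 lay among the knockouts, and the log2 difference of -0.77 ± 0.45 (SE) had an exact permutation p of 0.3. It was -0.41 without control 2 and -1.08 without control 1 (exact permutation p = 0.6 and 0.1).

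**Figure D2:**
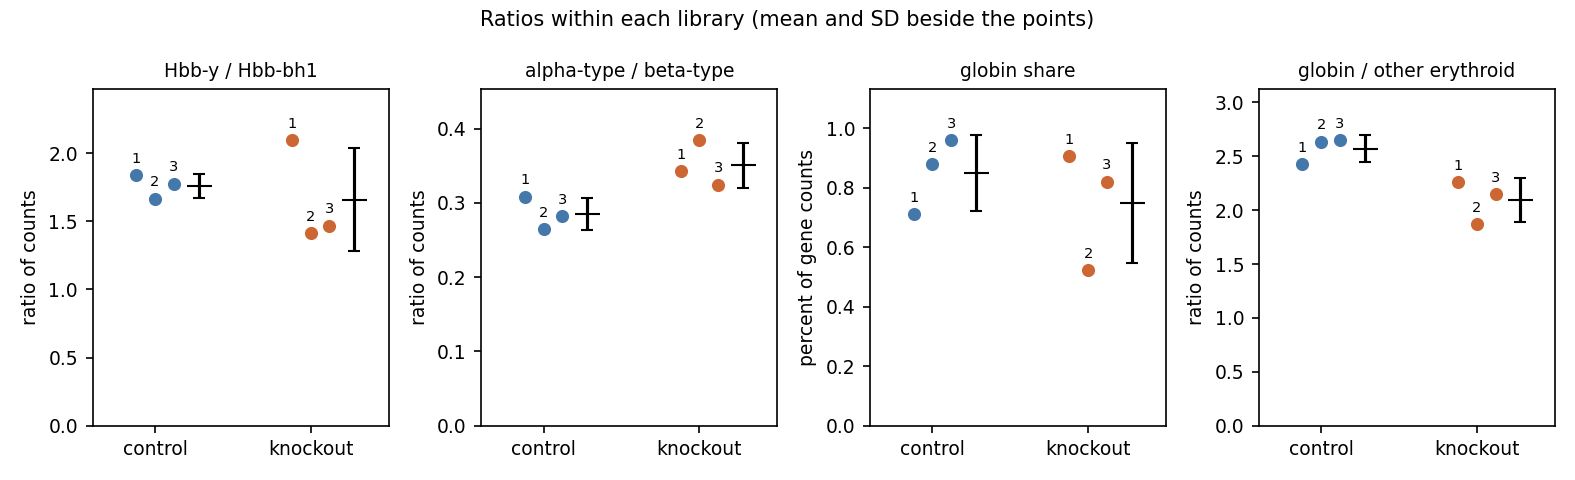
Ratios within each library (vertical axes from 0, as ratios of counts or percent of gene counts) for 3 control and 3 knockout embryos, numbered by replicate, with the mean and SD beside the points. Alpha-type over beta-type counts are higher in all 3 knockouts and globin over other erythroid counts lower in all 3, while the other ratios overlap. Globin counts here are almost all from the embryonic genes.

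Globin RNA was also set against the RNA of other erythroid genes in the same library. Since the adult rows held at most 1 count and Beta-s was left out, the globin counts here are in effect those of the embryonic genes. Adult globin RNA is not covered by this ratio. Globin counts over the summed counts of 47 other erythroid genes were 2.43, 2.64 and 2.65 in controls 1, 2 and 3 and 2.26, 1.87 and 2.15 in knockouts 1, 2 and 3. Each knockout was below each control. The means were 2.57 ± 0.123 and 2.09 ± 0.202 (SD, n = 3), a log2 difference of -0.30 ± 0.09 (SE; exact permutation p = 0.1, the smallest possible, adjusted 0.2). That sum takes 16.2% of its counts from Prdx2 and 11.6% from Epb4.1, which other tissues use too, so it is not RNA of red cells alone. In control 1 the sum was 89257 counts, while 14 genes used mainly by red cells held 14306. In knockout 1 these were 99978 and 22836. Against only the 14 genes used mainly by red cells, the globin ratio ran from 13.2 to 15.1 among controls and from 9.89 to 11.7 among knockouts. The log2 difference was -0.44 (exact permutation p = 0.1, the smallest possible and not adjusted). That set of 14 genes was chosen after the values were seen. Together the 3 embryonic genes had 7433 to 9419 CPM in controls and 8706, 5356 and 7848 CPM in knockouts 1, 2 and 3. Knockouts 1 and 3 lay within this control range, so their lower ratio need not mean less globin RNA. Tested haem and iron genes summed to 951 to 1170 CPM in controls and 1320, 962 and 1342 CPM in knockouts. Tested membrane and other erythroid genes summed to 2110 to 2387 CPM in controls and 2532, 1905 and 2313 CPM in knockouts.

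Taken gene by gene, also after the values were seen, Hbb-y over the 47 erythroid genes was 1.20, 1.30 and 1.32 in controls 1, 2 and 3 and 1.14, 0.79 and 0.963 in knockouts 1, 2 and 3. The groups were apart, with a log2 difference of -0.42 ± 0.16 (SE; exact permutation p = 0.1, adjusted 0.35). Hbb-bh1 over the same sum was 0.654, 0.782 and 0.744 against 0.544, 0.559 and 0.658, and knockout 3 overlapped control 1 (-0.31 ± 0.11, exact permutation p = 0.2). Hba-x over that sum was 0.572, 0.551 and 0.583 against 0.576, 0.519 and 0.526, overlapping, with a log2 difference of -0.07 ± 0.05 (exact permutation p = 0.3), which was -0.12 without knockout 1 and -0.05 without knockout 2.

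**Figure D3:**
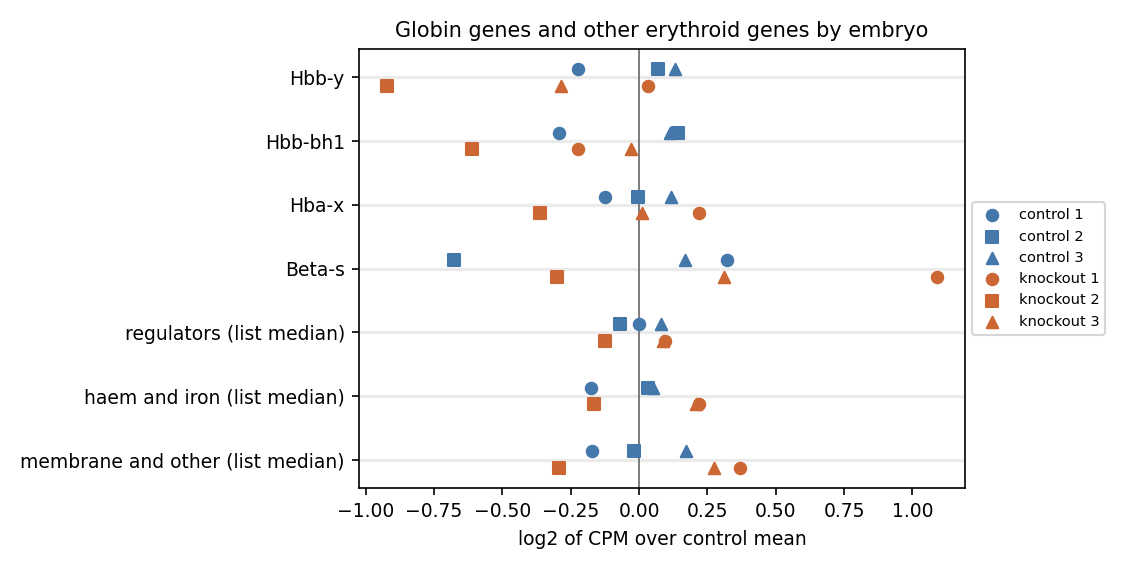
Log2 of CPM over the control mean (horizontal axis) for the globin genes, and list medians for regulators and other red cell genes (after adding 0.5 CPM), with one symbol per embryo. Knockout 2 lies lowest for each embryonic globin gene and each list except haem and iron, where control 1 is lowest, and knockouts 1 and 3 lie above the controls for both lists of red cell genes.

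Regulators of the globin clusters and of red cell genes gave no call by edgeR over 23 tested genes, where 1.51% of all genes were called. Of these regulators 5 had an unadjusted edgeR p under 0.05 (19.2% of all genes) and DESeq2 called 2 (5.17% of all genes). Their log2 fold changes ran from -0.56 to 0.47, 15 of them above 0, with a median of 0.08 beside -0.0010 over all genes. The median was 0.024 without control 2, 0.039 without knockout 1 or without knockout 3, and 0.12 without knockout 2. Lmo2, a bridging protein of the erythroid factor complex with Tal1 and Gata1, had 22.9, 22.4 and 22.9 CPM in controls against 18.6, 15.1 and 17.6 CPM in knockouts, each knockout below each control. Its log2 fold change was -0.41 ± 0.10 (SE), with adjusted p-values of 0.0923 by edgeR and 0.0268 by DESeq2. Myb, a progenitor factor of definitive blood, had 14.5, 12.8 and 14.9 CPM in controls against 10.3, 7.42 and 10.9 CPM in knockouts, also without overlap. Its log2 fold change was -0.56 ± 0.16 (SE), with adjusted p-values of 0.119 by edgeR and 0.0363 by DESeq2. Igf2bp1, an RNA-binding protein of fetal cells, and Klf3, a repressor related to Klf1, were at 0.24 and 0.21 with edgeR adjusted p-values of 0.159 and 0.21. Which tissues of the whole embryos the regulator counts came from was not tested.

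Genes of haem synthesis and iron, which supply the prosthetic group of globin, also gave no edgeR call in 16 tested genes (1.51% of all genes). Of these, 4 had an unadjusted edgeR p under 0.05 (19.2% of all genes) and DESeq2 called 2 (5.17% of all genes). The median log2 fold change was 0.08. That median depended on single libraries and ran from 0.0027 without knockout 3, 0.019 without control 1 and 0.045 without knockout 1 to 0.13 without control 2 and 0.18 without knockout 2. Cpox, the coproporphyrinogen oxidase gene, was at 76.2, 89.2 and 94.4 CPM in controls 1, 2 and 3 and 122, 99.4 and 132 CPM in knockouts 1, 2 and 3. All knockouts were above all controls, at 0.45 ± 0.12 (SE) on the log2 scale, with adjusted p-values of 0.106 by edgeR, 0.0198 by DESeq2 and 0.00629 by edgeR without knockout 2. Hebp1, a haem-binding protein gene, was at 0.55 ± 0.14 (edgeR adjusted p = 0.0936, DESeq2 0.0126, and edgeR 0.0061 without knockout 2). Urod, which acts just before Cpox, was at -0.20, and the porphyrin transporter gene Abcb6 at 0.27.

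In the list of red cell membrane and other erythroid genes, 30 were tested and edgeR called 0 (1.51% of all genes), around a median of 0.15. DESeq2 called 2 (5.17% of all genes), and 4 had an unadjusted edgeR p under 0.05 (19.2% of all genes). Prdx2, an abundant peroxide-removing enzyme of red cells that other tissues share, had a log2 fold change of -0.34 ± 0.09 (SE; adjusted p = 0.105 by edgeR, 0.0126 by DESeq2 and 0.0311 by edgeR without knockout 2). Bpgm, the enzyme that makes the 2,3-bisphosphoglycerate that tunes oxygen binding, had one of -0.33 (adjusted p = 0.105 by edgeR and 0.0365 by DESeq2). The water channel gene Aqp1 was at 0.56 ± 0.22 (SE, edgeR adjusted p = 0.216) and the red cell adhesion gene Icam4 at -0.62 ± 0.27 (edgeR adjusted p = 0.249). Both had low counts, 56 to 107 for Aqp1 and 27 to 79 for Icam4 per library. Against the control mean the list median stood at 0.37, -0.29 and 0.28 in knockouts 1, 2 and 3, and the fitted median was 0.34 without knockout 2 and 0.25 without control 3, but 0.041 without knockout 1, 0.063 without knockout 3 and 0.078 without control 1. Without knockout 2 edgeR called 9 genes of this list higher and 1 lower, 4 of haem synthesis and iron higher and 1 regulator higher, where that fit called 10.8% of all genes.

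**Figure D4:**
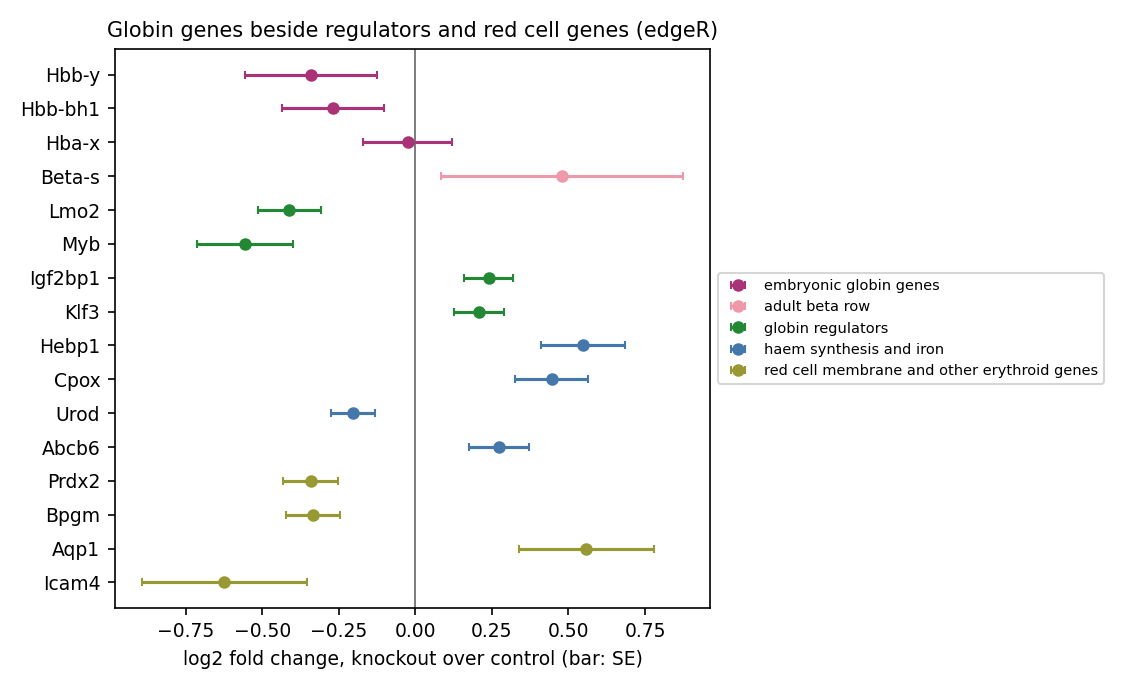
Log2 fold change of knockout over control (horizontal axis, bars show the SE) for the embryonic globin genes, Beta-s and listed genes. The latter are the 4 genes with the smallest p in each of 3 lists: regulators, haem and iron, and red cell membrane and other erythroid genes. None of the genes shown was called by edgeR.

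Minor members of the globin clusters were near the floor. Hbb-bh2 had 3 to 18 counts per library, with the 18 in knockout 3, and Hbq1a 1 to 4. Hbq1b, of the theta globin pair of the alpha cluster, had 34, 38 and 39 counts in controls against 36, 26 and 37 in knockouts, at a log2 fold change of -0.08 with an edgeR adjusted p of 0.876. Globins outside the clusters, the cytoglobin gene Cygb at -0.24 and the myoglobin gene Mb at -0.03, were not called either. Cygb was at -0.54 without knockout 1, -0.14 without control 1, -0.13 without knockout 2 and -0.085 without knockout 3.

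Among markers of other blood cells and blood-forming tissue, most calls were in macrophage genes. Of 11 macrophage genes 10 were lower by edgeR, with Cx3cr1, Csf1r, Mrc1 and C1qb at the smallest p. Over all genes edgeR called 0.955% lower, the share to set beside each count of lower genes here. The summed level of the 11 macrophage genes was 59.2 to 71.1 CPM in controls and 3.29 to 4.74 CPM in knockouts. C1qb, a complement gene of macrophages, had 130 to 179 counts in controls and 0 in every knockout. Of 12 megakaryocyte and platelet genes, with a median log2 fold change of -0.79 (-0.53 without knockout 1), edgeR called 0 lower (4 without knockout 2), and Vwf, also an endothelial gene, was higher (0.89, edgeR adjusted p = 0.0175). Of the 12 genes only Vwf had a log2 fold change above 0, and 7 had an unadjusted edgeR p under 0.05, as had 19.2% of all genes. The summed level was 58.7 to 76.5 CPM in controls and 62.1 to 77.7 CPM in knockouts. Of that sum Vwf alone made up 20.8 ± 3.84 CPM in controls and 38.5 ± 4.14 CPM in knockouts (SD, n = 3). The call of Vwf was lost without control 1, control 2 or knockout 3. Of 9 progenitor genes, with sums of 366 to 376 CPM in controls and 350 to 383 CPM in knockouts, only the granule enzyme gene Mpo was lower (-2.26, edgeR adjusted p = 0.0138), a call lost without any one control or without knockout 3. Of 9 genes of liver bud and yolk sac endoderm only Ttr, the transthyretin gene, was lower (-1.69, edgeR adjusted p = 0.00886, and 0.0528 without control 1), and their sum was 198 to 320 CPM in controls and 108 to 226 CPM in knockouts. Their part in the globin values was not tested.

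The 3 embryonic genes varied together across embryos. Pearson's r of log2 CPM over 6 libraries was 0.849 for Hbb-y with Hbb-bh1, 0.890 for Hbb-y with Hba-x and 0.691 for Hbb-bh1 with Hba-x, given as a description of libraries that share these embryos. Their mean log2 CPM, set against the control mean, was -0.20, 0.08 and 0.13 in controls 1, 2 and 3 and 0.02, -0.62 and -0.09 in knockouts 1, 2 and 3, so knockout 2 carries much of the variation. Among 12638 other genes averaging 2 CPM or more, the profiles most like this mean over 6 libraries included those of the DNA ligase gene Lig3 (r = 0.997), the blood cell tetraspanin gene Tspan32 (0.993), Pgbd1 (0.989) and Ehd3 (0.987). Of 45 erythroid genes in that set 6 had an r above 0.9, 13.3%, as had 1.27% of all genes compared. None of the 4 adult symbols passed the filter, so no profile was compared for them, and none was for Beta-s.

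The promoters of Hbb-y and Hba-x, the members of each cluster with strong counts and a promoter in the RefSeq table, are shown because the genes varied together. Each is the 250 bases before the start site in RefSeq (GRCm38.p6), while the counts were made on mm9. Capitals mark 4 short motifs on either strand: CACCC, known as a site of Klf1-type factors, CCAAT, the site of the nuclear factor Y complex, GATAA, a site of GATA factors, and ATAAA, a form of the TATA box. A match of one may overlap another.

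Hbb-y, chr7:103853208-103853457, minus strand: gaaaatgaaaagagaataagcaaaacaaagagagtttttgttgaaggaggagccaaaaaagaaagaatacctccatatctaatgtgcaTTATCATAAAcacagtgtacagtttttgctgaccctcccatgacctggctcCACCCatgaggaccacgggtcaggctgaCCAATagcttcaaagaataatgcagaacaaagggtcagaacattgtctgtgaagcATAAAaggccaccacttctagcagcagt
Hba-x, chr11:32276350-32276599, plus strand: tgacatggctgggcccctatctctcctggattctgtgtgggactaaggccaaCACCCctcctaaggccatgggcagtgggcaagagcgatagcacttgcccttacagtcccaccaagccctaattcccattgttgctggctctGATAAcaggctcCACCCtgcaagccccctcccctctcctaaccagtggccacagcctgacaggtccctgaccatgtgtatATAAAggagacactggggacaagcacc

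Hbb-y holds all 4 motifs, with ATAAA from 28, CCAAT from 83 and CACCC from 111 bases before the start, and a second ATAAA abutting a reverse GATAA at 162. Hba-x holds 3 of the 4, with ATAAA from 27, CACCC from 95 and 198 and GATAA from 107 bases before the start. Among 32851 promoters of the same length, 52.0% hold CACCC, 33.8% CCAAT, 22.6% GATAA and 37.3% ATAAA, so a match is common and describes letters only. The full windows of Hba-a1 and Hba-a2 in the RefSeq table, which also run past the start site, have no difference over the 297 bases they share at an offset of 3 bases.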

How the data were processed

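The authors deposited whole-number read counts per gene symbol for 6 embryos, with no normalization. Per the submitters' processing notes, Trimmomatic, TopHat2, Bowtie2 and HTSeq were used on mm9. Not given in the sources used here were their versions, the strand setting and the gene annotation. A KAPA stranded kit was used, per the labels' protocols. Rows that name no gene held 29.5% to 39.8% of alignments and stayed out of library sizes and tests.

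Genes that filterByExpr kept (minimum count 10, total 15; 15075 of 23366) were fitted together in edgeR 4.0.16 under R 4.3.3, with TMM scaling, the robust quasi-likelihood F test and group as the only term. Calls were made at a Benjamini-Hochberg adjusted p under 0.05. Each standard error of an edgeR log2 fold change is the size of that change divided by the root of F. For ratios it comes from the variances of the log2 ratios in each group. The biological coefficient of variation was 12.2%. The fit was tested on simulated data. Ratios of counts per library were compared by two-sided exact permutation tests. Likeness used log2 CPM with a prior count of 2 and a mean of at least 2 CPM.

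Members, lists and tests were chosen with earlier results of these data known. Named are all members, H3f3a and H3f3b as the label check, up to 4 genes with the smallest p per list, and the 5 genes most like the embryonic mean, of which 1 is not reported here. Symbols absent from the files, among them Ahsp and Spi1, and globin proteins were not analysed here. Counts per repeat name were not used. Alternatives were other scalings, DESeq2 1.42.0, limma-voom (limma 3.58.1), other filters and thresholds, a replicate block, a covariate, and each library left out.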

Additional observations from a re-analysis of the deposited data

How the results depend on the processing

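The number of globin genes called stayed at 0 under the other scalings, filters, priors, tools and thresholds, without any one library and with the replicate number as a block; it was 2 with the share of alignments outside genes as a covariate. Hba-x turned in sign with library totals (0.036), without control 3 (0.04) and without knockout 2 (0.12), within a range of -0.16 to 0.12 over the libraries left out. Beta-s turned with the covariate (-0.14). Library totals moved the median of all genes by 0.056, and Mb turned to 0.023 with them; over the libraries left out Mb ran from -0.21 to 0.26, with 0.03 without knockout 1 and 0.05 without knockout 3, Cygb from -0.54 to -0.085, and Hbq1b from -0.19 to 0.052 (positive without knockout 2). The log2 difference of the globin share ran from -0.37 to 0.031, positive without knockout 2. Ratios kept their sign otherwise, with alpha-type over beta-type at 0.23 to 0.36 and globin over erythroid genes at -0.36 to -0.22. Among list genes 13 were called, of them 10 macrophage genes, where edgeR called 1.51% of all genes. The lists held 3, 23, 16, 30, 11, 12, 9 and 9 tested genes. DESeq2 called 21 list genes (5.17% of all genes), and the replicate block gave 18. Without single libraries the count was 10 to 32, the 32 without knockout 2, where that fit called 10.8% of all genes. The cause of these changes was not tested.

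Deviations of same-numbered embryos from their group means had r of -0.09, 0.17 and 0.26 over genes. Not every embryo correlated best with its own number. The labels do not say that equal numbers pair embryos, and these values cannot settle it. With the block Myb (0.0413), Cpox (0.0461), Prdx2 (0.0325), Apob (0.0364) and Afp (0.0332) passed by edgeR adjusted p. As pairs, alpha-type over beta-type kept 0.30 with an exact p of 0.25. The planned ratios of embryonic to adult chains could not be computed, since the adult rows were at 0 or 1 count. With 3 embryos a group, no permutation test can go under 0.1.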
